A study of Mus musculus with 15 samples.

Results

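A set of 10 genes that mark the exocrine pancreas was followed through 15 RNA-seq libraries of sorted mouse islet cells. They were chosen by name from the 23699 entries of each gene table: the acinar products Cpa1, Ctrb1, Cela2a, Pnlip, Clps and Reg1, and the duct markers Krt19, Spp1, Muc4 and Cftr. Each library came from islet cells carrying red fluorescent protein (RFP) switched on by cre recombinase, a permanent tag of cells in which cre was active and of their descendants, and each was split by aldehyde dehydrogenase activity with the fluorescent substrate aldefluor into an ALDH- and an ALDH+ fraction. The mice, on a mixed 129JC57BL/6 background, were either control animals, labelled as heterozygous at FoxO1, FoxO3 and FoxO4, or FoxO KO animals, labelled as knockouts of the same genes. The study's methods describe RIP-Cre control mice with wild-type FoxO alleles instead, so the genotype differences below are between libraries as labelled, and the allele that the controls carry is not settled by these sources. There were 3 control ALDH-, 2 control ALDH+, 5 FoxO KO ALDH- and 5 FoxO KO ALDH+ libraries. RIP-Cre, driven by the rat insulin promoter and active in β cells, was used for 9 of them (control ALDH- 1 and 2, control ALDH+ 1, and FoxO KO 1 to 3 of each fraction), and Pdx-Cre, active in the pancreatic progenitors that also give rise to acinar and duct cells, for 6 (control ALDH- 3, control ALDH+ 2, and FoxO KO 4 and 5 of each fraction). The RIP-Cre mice were 6 months old, and the age of the Pdx-Cre mice is not given in the sources used here. Nothing says that libraries with different numbers came from different animals, nor that fractions sharing a number did. The p-values below therefore measure the spread between these libraries only. In the driver and genotype tests, fractions sharing a number were counted as separate libraries.

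Acinar cells make and store the digestive enzymes of the pancreas, among them proteases, lipases and amylases, and each such transcript is produced at a very high level in the acinar cell and at a very low one in islet cells. The acinar programme depends on the PTF1 complex, built from the basic helix-loop-helix factor Ptf1a with Rbpjl, which binds an E-box next to a TC box in the promoters of the enzyme genes. Duct cells line the tubes that drain these enzymes. They carry keratins such as Krt19, secrete bicarbonate through the chloride channel Cftr, and express mucins and osteopontin (Spp1). In bulk libraries such as these, a few cells of a type and a little RNA in every cell cannot be told apart.

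Of the 10 genes, 8 had a promoter in the RefSeq-based table (GRCm38.p6), and Clps and Krt19 did not. The 250 bases before the transcription start are shown for the 5 acinar genes with an entry, because these genes were high in the same libraries, and for Muc4, the gene that differed most with the FoxO genotype. In the acinar sequences capitals mark an E-box (CAGCTG or CACCTG) or a TC box (TTTCCC), searched on both strands. In Muc4 the letters searched were those of a FoxO site (GTAAACA or GTAAATA), and none was found, so the sequence is all in lower case.
Ctrb1, chr8:111691011-111691260, minus strand: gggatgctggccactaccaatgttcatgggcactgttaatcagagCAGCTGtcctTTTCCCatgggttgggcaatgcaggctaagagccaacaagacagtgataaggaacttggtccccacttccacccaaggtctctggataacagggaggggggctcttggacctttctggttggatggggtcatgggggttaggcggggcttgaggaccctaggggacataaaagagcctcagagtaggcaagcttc
Cela2a, chr4:141826006-141826255, minus strand: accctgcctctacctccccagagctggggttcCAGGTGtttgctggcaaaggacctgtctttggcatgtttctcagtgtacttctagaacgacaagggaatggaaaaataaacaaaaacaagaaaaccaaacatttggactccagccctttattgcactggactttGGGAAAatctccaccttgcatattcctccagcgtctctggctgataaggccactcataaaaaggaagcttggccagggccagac
Cpa1, chr6:30638968-30639217, plus strand: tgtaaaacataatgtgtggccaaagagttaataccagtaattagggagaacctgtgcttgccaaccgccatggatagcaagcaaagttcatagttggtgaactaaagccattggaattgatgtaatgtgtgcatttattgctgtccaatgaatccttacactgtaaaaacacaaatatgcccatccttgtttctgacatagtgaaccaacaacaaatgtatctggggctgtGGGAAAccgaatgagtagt
Reg1, chr6:78425733-78425982, plus strand: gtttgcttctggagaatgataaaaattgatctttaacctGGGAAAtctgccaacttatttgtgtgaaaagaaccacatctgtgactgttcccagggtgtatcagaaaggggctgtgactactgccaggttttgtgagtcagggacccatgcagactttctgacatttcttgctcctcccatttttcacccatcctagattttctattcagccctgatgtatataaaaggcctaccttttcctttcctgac
Pnlip, chr19:58670115-58670364, plus strand: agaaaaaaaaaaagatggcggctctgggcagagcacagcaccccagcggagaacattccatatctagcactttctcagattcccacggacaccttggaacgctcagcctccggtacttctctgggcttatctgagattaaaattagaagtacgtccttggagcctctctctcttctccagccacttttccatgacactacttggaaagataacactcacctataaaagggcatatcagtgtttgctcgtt
Muc4, chr16:32735636-32735885, plus strand: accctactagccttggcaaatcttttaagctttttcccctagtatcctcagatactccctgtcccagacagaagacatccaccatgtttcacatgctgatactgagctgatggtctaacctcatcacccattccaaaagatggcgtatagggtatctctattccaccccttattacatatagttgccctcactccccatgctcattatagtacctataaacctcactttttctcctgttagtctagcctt
Ctrb1 had an E-box beginning 205 bases before the start and a TC box beginning 195 bases before it. Cela2a also had both, at 218 and 84 bases, each read from the opposite strand, but not next to each other as in Ctrb1. Cpa1 had a TC box at 19 bases and Reg1 one at 211 bases, both read from the opposite strand, and Pnlip had neither. Among 32851 promoters of the same length, 27.7% held one of these E-boxes, 21.9% a TC box, 5.91% both, and 5.76% the FoxO letters. A match is a string of letters and was not tested for binding.

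The libraries held 7492010 to 10057827 fragments, as recovered from the deposited confidence bounds, and the values are FPKM, fragments scaled by transcript length and library depth, so levels of different genes can be set side by side per length. Foxo1 lay between 12.04 and 20.1 FPKM in control libraries and between 0.0925 and 4.24 FPKM in FoxO KO libraries, whereas Foxo3 ranged from 12.7 to 23.0 FPKM in control and from 9.78 to 30.6 FPKM in FoxO KO libraries and Foxo4 was at most 1.34 FPKM anywhere. Foxo1 thus followed the genotype label, whereas the FPKM of Foxo3 overlapped between the genotypes and does not show its loss, and Foxo4 was too low to check it. Aldh1a3, the enzyme behind the sort, was at 0.490 to 4.09 FPKM in ALDH- and 22.1 to 76.9 FPKM in ALDH+ libraries. Iapp, the β-cell amyloid peptide, was at 33196 FPKM or more in every library. FoxO KO ALDH- 5 and FoxO KO ALDH+ 5 stood apart in the acute-phase gene Lcn2, at 6473 and 7521 FPKM against 25.4 to 605 FPKM in the other 13 libraries.

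**Figure D1:**
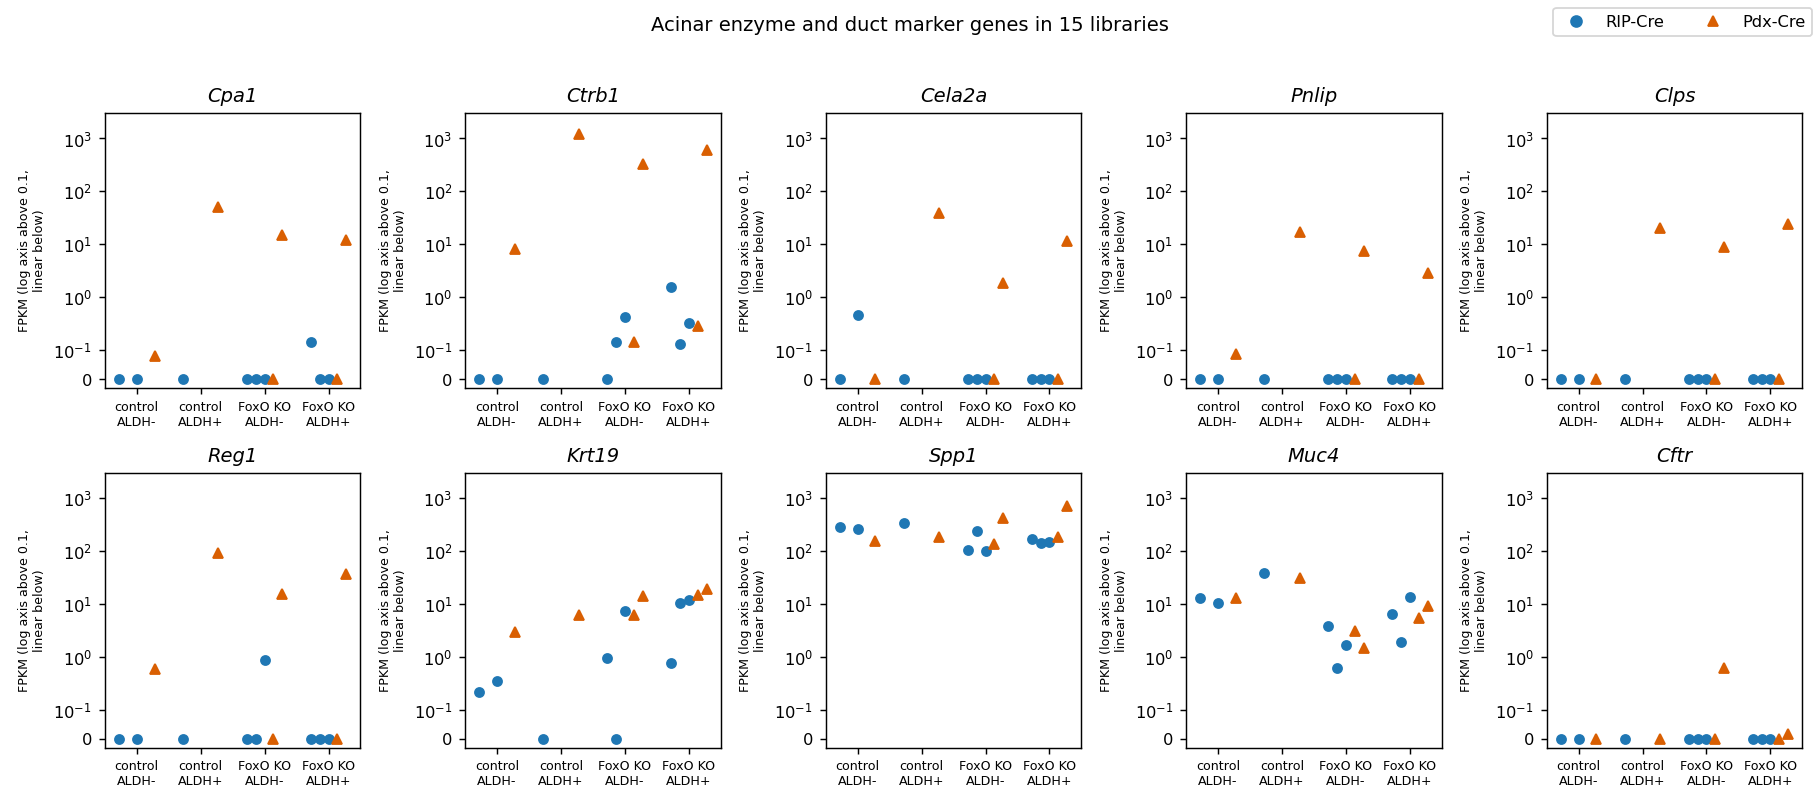
FPKM of each gene (vertical axis, logarithmic above 0.1 and linear below) in the 15 libraries, grouped by genotype and ALDH fraction, one point per library, circles for RIP-Cre and triangles for Pdx-Cre. The 6 acinar genes are high in 3 Pdx-Cre libraries and at or near 0 elsewhere, Muc4 is lower in FoxO KO, Krt19 is higher in Pdx-Cre, and Spp1 is above 100 FPKM throughout.

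The acinar transcripts were present in quantity in 3 of the 6 Pdx-Cre libraries, one control and a pair of FoxO KO libraries, and were at or near 0 in the 9 RIP-Cre libraries. Ctrb1 (chr8:114210410-114214910, mm9), the precursor of the protease chymotrypsin, was the highest of them. It reached 1223 FPKM in control ALDH+ 2, 601 FPKM in FoxO KO ALDH+ 5 and 331 FPKM in FoxO KO ALDH- 5. In the other Pdx-Cre libraries it was 8.14 FPKM in control ALDH- 3, 0.140 FPKM in FoxO KO ALDH- 4 and 0.285 FPKM in FoxO KO ALDH+ 4. The RIP-Cre libraries ran from a listed 0 to 1.58 FPKM, with a median of 0.131 FPKM, and 4 of the 9 were listed at 0. Control ALDH- 3 rested on 51 fragments, with a deposited interval of 5.86 to 10.4 FPKM, and the highest RIP-Cre value, FoxO KO ALDH+ 1, on 11 fragments. Libraries of both genotypes and both ALDH fractions were thus found at both ends of the range.

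The other pancreatic proteases followed. Cpa1 (chr6:30589221-30595361), carboxypeptidase A1, which trims residues from the C-terminal end of peptides, was at 50.3 FPKM in control ALDH+ 2, 15.02 in FoxO KO ALDH- 5 and 12.02 in FoxO KO ALDH+ 5. It was at 0.0790 FPKM in control ALDH- 3 and 0.142 FPKM in FoxO KO ALDH+ 1, from 1 and 2 fragments, and listed at 0 in the other 10 libraries. Cela2a (chr4:141370878-141381918), an elastase, was at 38.2, 11.4 and 1.83 FPKM in control ALDH+ 2, FoxO KO ALDH+ 5 and FoxO KO ALDH- 5. Elsewhere it did not exceed 0.458 FPKM, reached in the RIP-Cre library control ALDH- 2 from 4 fragments. Housekeeping genes were not at 0 in any library, with Tbp, a low one, at 9.28 FPKM or more.

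The fat-digesting pair showed the same libraries in another order. Pnlip (chr19:58744855-58756278), pancreatic triglyceride lipase, was at 17.2 FPKM in control ALDH+ 2, 7.35 in FoxO KO ALDH- 5 and 2.89 in FoxO KO ALDH+ 5, at 0.0846 FPKM in control ALDH- 3 from a single fragment, and at 0 elsewhere. Clps (chr17:28695159-28697659), the colipase that anchors this enzyme to fat droplets, was at 24.3 FPKM in FoxO KO ALDH+ 5, 20.5 in control ALDH+ 2 and 9.05 in FoxO KO ALDH- 5 and was listed at 0 in the other 12 libraries. Pnlip was therefore lowest of the 3 libraries where Clps was highest. Reg1 (chr6:78375977-78378660), a secreted lectin of acinar cells, was at 93.1, 36.2 and 15.2 FPKM in control ALDH+ 2, FoxO KO ALDH+ 5 and FoxO KO ALDH- 5. It was at 0.580 FPKM in control ALDH- 3 and 0.860 FPKM in the RIP-Cre library FoxO KO ALDH- 3, from 3 and 5 fragments.

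Summed over the 6 genes, acinar transcripts came to 1442 FPKM in control ALDH+ 2, 688 in FoxO KO ALDH+ 5 and 380 in FoxO KO ALDH- 5, or 0.212%, 0.0996% and 0.0448% of all FPKM listed in these libraries. Control ALDH- 3 followed with 8.88 FPKM from 56 fragments, and no other library exceeded 1.72 FPKM or 13 fragments. Ctrb1 supplied 84.8%, 87.4% and 87.2% of the sum in the 3 high libraries. Relative to Cpa1, Ctrb1 was 24.3 times as abundant per length in control ALDH+ 2 and 22.0 times in FoxO KO ALDH- 5, but 50.03 times in FoxO KO ALDH+ 5. The ratio of Clps to Cpa1 was 0.407, 0.603 and 2.02 in the same order, and that of Reg1 to Cpa1 1.85, 1.01 and 3.01. That of Cela2a to Cpa1 was 0.758, 0.122 and 0.952, so the make-up of the acinar transcripts differed between the 3 libraries. No test of these ratios was possible with a single library of each kind.

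The cre driver, the ALDH fraction and the genotype were then compared in one limma fit of log2(rescaled FPKM + 1), with a term for each of the 4 groups and one for the driver. Of the 10 genes, 9 were tested and Cftr fell below the expression filter, a mean of 1 FPKM over all libraries, which the acinar genes passed only through the 3 high libraries. Between drivers, 2 of the 9 passed an adjusted p of 0.05, both higher in Pdx-Cre, against 9.83% of 11254 genes called in either direction, 5.62% higher and 4.2% lower. Ctrb1 was higher by 4.83 ± 1.29 (log2 difference ± SE, adjusted p = 0.0270), and Krt19 was the other. The exact permutation p for Ctrb1, with the driver permuted within group, was 0.0183, and it was higher in Pdx-Cre in 4 of 4 groups. Reg1 (2.52 ± 0.79), Cpa1 (2.11 ± 0.69), Clps (1.98 ± 0.66), Pnlip (1.47 ± 0.51) and Cela2a (1.57 ± 0.60) had adjusted p-values of 0.0568, 0.0646, 0.0723, 0.0813 and 0.113 and did not pass. Their exact permutation p-values were 0.0400, 0.0400, 0.0800, 0.0267 and 0.0800, over 600 arrangements.

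These driver values rested on few libraries. Ctrb1 no longer passed when control ALDH+ 1, control ALDH+ 2, FoxO KO ALDH- 5 or FoxO KO ALDH+ 5 was left out, at log2 differences of 3.94, 3.94, 3.94 and 3.85 (adjusted p = 0.0865, 0.0849, 0.0831 and 0.0764). Without both FoxO KO libraries numbered 5, chosen after the data were seen, it was 2.65 (adjusted p = 0.207). Without FoxO KO ALDH+ 4, a Pdx-Cre library with acinar transcripts near 0, 7 of the 9 genes passed, all 6 acinar genes among them. In that fit 1070 of 11251 genes were called. Without FoxO KO ALDH- 4, also near 0, 6 passed, Krt19 and all acinar genes but Cela2a, where 1266 of 11232 genes were called. Leaving out a Pdx-Cre library near 0 raises the driver difference, and the acinar genes passed the filter only through the 3 high libraries. These counts therefore support nothing about the acinar genes. Within the control libraries alone, Cpa1, Ctrb1, Pnlip, Reg1 and Krt19 were higher in both Pdx-Cre libraries than in each of the 3 RIP-Cre libraries, as were 13.4% of all genes tested. In control ALDH- 3, however, Cpa1 and Pnlip rested on 1 fragment each and Reg1 on 3. The acinar genes also passed the filter only through the high libraries, control ALDH+ 2 among them. For these genes the comparison with 13.4% can therefore show neither an excess nor the lack of one.

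No acinar gene passed for the ALDH fraction or the genotype. Between ALDH+ and ALDH- the differences of the 6 acinar genes ran from 0.79 (Pnlip) to 1.84 (Ctrb1, SE 1.35, 95% interval -1.03 to 4.71), with adjusted p-values from 0.251 to 0.488. Between FoxO KO and control they ran from -0.94 (Ctrb1, SE 1.35, 95% interval -3.80 to 1.92) to -0.27 (Clps), with adjusted p-values of 0.846 or more. The exact permutation p-values were 0.333 or more for the fraction and 0.489 or more for the genotype. The intervals of Ctrb1 span several doublings in both comparisons and include 0. Neither test of whether the ALDH difference changes with genotype or with driver called any gene at all by limma (477 and 518 genes had an unadjusted p under 0.05), and the largest of the acinar interactions with the driver was that of Cela2a, 2.44 ± 1.07 (adjusted p = 0.997).

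**Figure D2:**
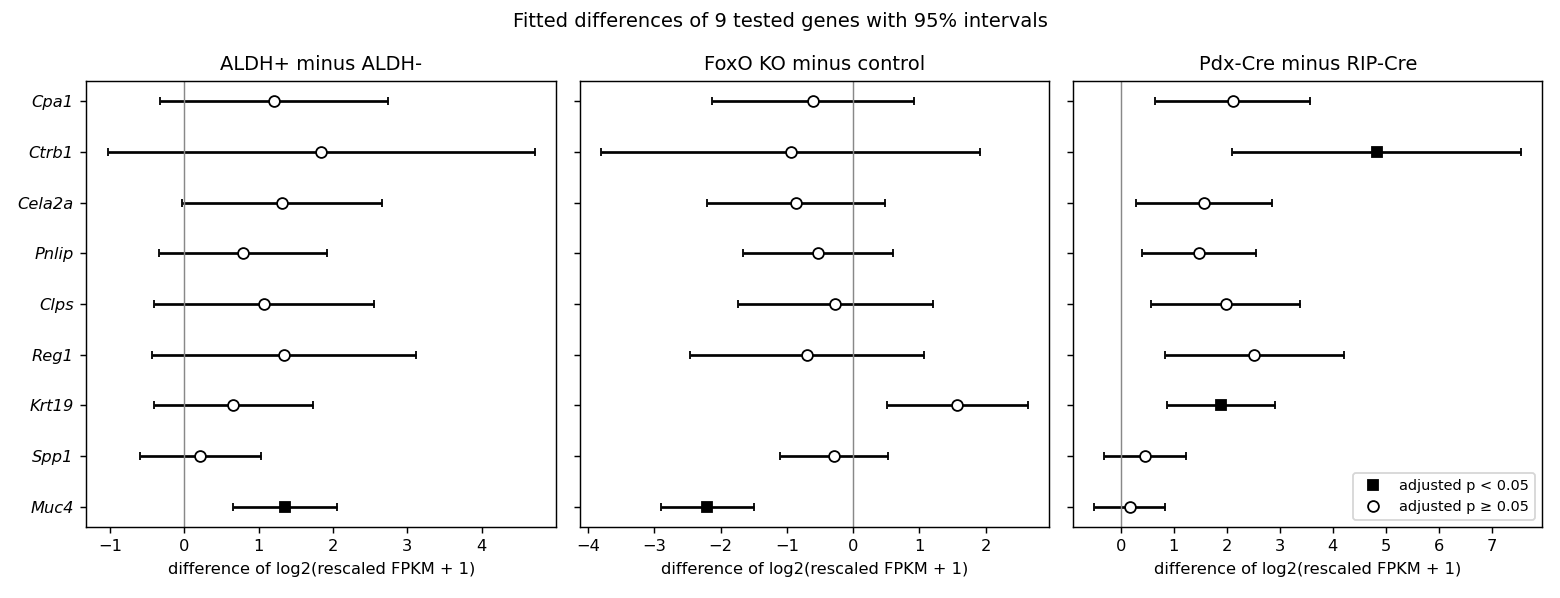
Fitted differences of log2(rescaled FPKM + 1) between ALDH fractions, genotypes and cre drivers for the 9 genes tested, with 95% intervals (limma, 15 libraries). Filled squares mark an adjusted p under 0.05, which Muc4 reached for fraction and genotype and Ctrb1 and Krt19 for driver.

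The rest of the acinar programme showed 3 patterns. Of 38 further acinar enzyme and secretory genes, 32 could be used, and 29 of these were above 0 in control ALDH+ 2, 27 in FoxO KO ALDH+ 5 and 19 in FoxO KO ALDH- 5, against 3 to 14 in the other libraries. Sycn (syncollin, a zymogen granule protein) was at 59.0, 43.3 and 6.27 FPKM, Cela3b (an elastase) at 31.1, 16.9 and 5.61 FPKM and the trypsinogen gene 2210010C04Rik at 31.1, 15.6 and 9.26 FPKM in those libraries, and these did not exceed 0.863 FPKM elsewhere. By contrast the elastase Cela1 was also well above 0 in Pdx-Cre libraries in which Cpa1 was near or at 0, at 15.6 FPKM in control ALDH- 3 and 14.3 FPKM in FoxO KO ALDH- 4, and reached 5.14 FPKM in RIP-Cre. Tmed6, a cargo receptor of the secretory pathway, was present in every library at 13.95 to 82.5 FPKM.

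Of these 32 genes, 18 were tested. In Pdx-Cre, 3 were higher, against 5.62% of all genes (among them Cela1 by 2.53 ± 0.64, adjusted p = 0.0210, and the lipase-related Pnliprp1 by 1.88 ± 0.54, adjusted p = 0.0384) and none lower. No gene of the list passed for the ALDH fraction or the genotype. Cela1 kept its call in 11 of 15 fits that each left out 1 library and Pnliprp1 in 4. Pnliprp1 and the other genes at or near 0 outside the high libraries passed the filter through those libraries only, so the count supports nothing about the list.

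The factors that drive the acinar programme were nearly absent or did not pass in any comparison. Ptf1a was at 0.480 FPKM in control ALDH+ 2 and at 0 in the other 14 libraries, and Rbpjl was at 0 in all 15. Bhlha15 (Mist1), which builds the secretory apparatus of acinar cells, was at 18.9 to 35.3 FPKM in all libraries and differed by 0.13 ± 0.15 between drivers (adjusted p = 0.621). Nr5a2 and Gata4 were at most 0.386 and 0.854 FPKM, and Gata6 ranged from 0.443 to 4.37 FPKM. Bhlha15 and Gata6 were the 2 factors tested.

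Among the relatives of Reg1, which are acute-phase lectins of the pancreas, only Reg2 reached the filter. Reg2 was at 12.5 FPKM in FoxO KO ALDH+ 5 and 2.26 FPKM in FoxO KO ALDH- 5, and at 0 in the other 13 libraries, control ALDH+ 2 included. Reg3g was at 4.36 and 2.28 FPKM in the same pair and at 0 elsewhere. Reg3b was at 2.75 FPKM in FoxO KO ALDH+ 5 and 1.15 FPKM in the RIP-Cre library control ALDH+ 1. Reg3d was at 0.239 FPKM in control ALDH+ 2 alone, and Reg3a and Reg4 were at 0 in every library. Reg1 and these relatives thus differed in which libraries held them, and Reg2 did not pass in any comparison (between drivers 0.93 ± 0.49, adjusted p = 0.251).

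Muc4 (chr16:32735972-32782476), a large membrane mucin of ductal and other epithelia, differed with genotype and with ALDH fraction. It was at 12.7, 10.3 and 12.8 FPKM in control ALDH-, at 38.5 and 30.2 FPKM in control ALDH+, at 3.86, 0.620, 1.68, 3.10 and 1.48 FPKM in FoxO KO ALDH-, and at 6.35, 1.90, 13.3, 5.28 and 8.96 FPKM in FoxO KO ALDH+. The means were 11.9 ± 1.40 (SD, n = 3), 34.4 ± 5.87 (n = 2), 2.15 ± 1.31 (n = 5) and 7.15 ± 4.26 (n = 5). Within each ALDH fraction every FoxO KO library was below every control library, which held for 0.213% of the genes tested, and both control ALDH+ libraries were above all control ALDH- libraries, which held for 14.2%. The FoxO KO fractions overlapped. The values rested on 71.0 to 4051 fragments per library.

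Muc4 was lower in FoxO KO by 2.20 ± 0.33 on the log2 scale (log2 difference -2.20, 95% interval -2.90 to -1.50, adjusted p = 0.0154). It ranked 4 among 11254 genes by p, in a comparison that called 13 genes in all, 0.116% of those tested, 0.0444% higher and 0.0711% lower. The exact permutation p was 0.00278, the smallest that 360 arrangements can give, and Muc4 was lower in 4 of 4 combinations of fraction and driver. Within RIP-Cre libraries alone the difference was -2.31 (adjusted p = 0.213), and within Pdx-Cre alone -2.10 (adjusted p = 0.738). The size therefore held in each driver while neither smaller set of libraries passed the threshold. Leaving out any one of the 5 control libraries also ended the call, with adjusted p-values of 0.0513 to 0.143 and differences of -2.33 to -2.07.

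In ALDH+ cells Muc4 was higher by 1.35 ± 0.33 (95% interval 0.65 to 2.05, adjusted p = 0.0263). It was the 1 of the 9 genes called for the fraction, against 5.91% of all genes in either direction, 2.23% higher and 3.68% lower. The exact permutation p was 0.00694 over 720 arrangements, and Muc4 was higher in ALDH+ in 4 of 4 combinations of genotype and driver. Within RIP-Cre it was 1.48 (adjusted p = 0.174) and within Pdx-Cre 1.19 (adjusted p = 0.792). Without a single one of the 5 control libraries the adjusted p was 0.0525 to 0.219, and without both FoxO KO libraries numbered 5 it was 0.0640. The longest annotated Muc4 transcript has 11277 bases, and long genes tended to be higher in ALDH+: the median difference of the tenth of genes of 6793 bases or more was 0.21, and 0.393% of them exceeded Muc4. With the length trend removed, the Muc4 difference was 1.07 for the fraction and -2.19 for the genotype. The difference between drivers was 0.17 ± 0.31 (adjusted p = 0.792), and the ALDH difference changed by -0.08 ± 0.66 with genotype (adjusted p = 0.999).

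**Figure D3:**
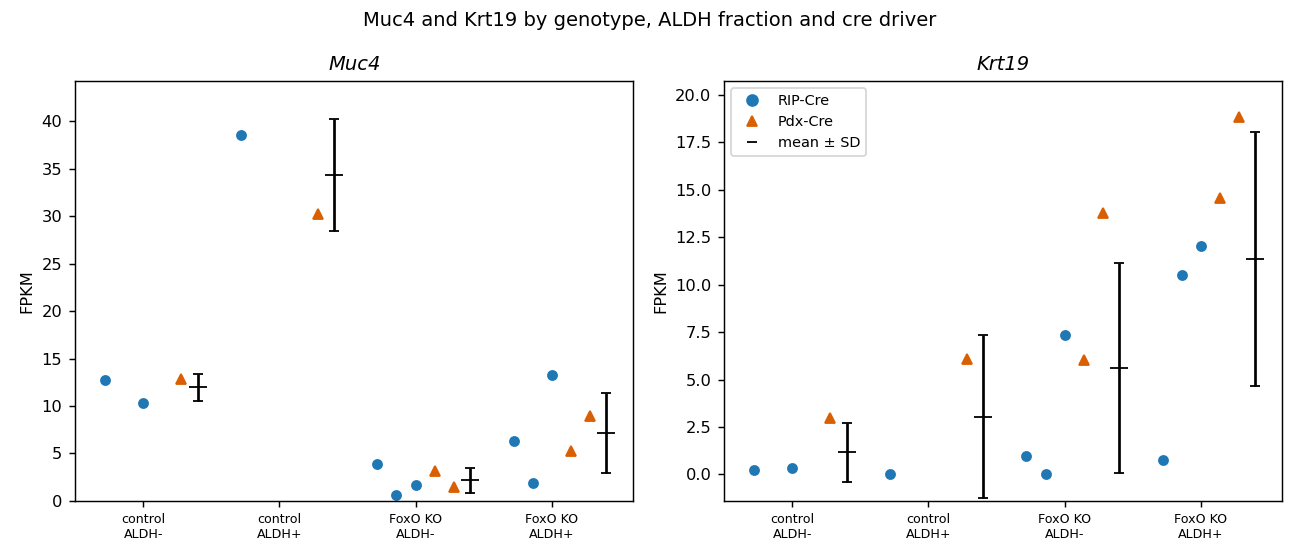
FPKM of Muc4 and Krt19 (linear vertical axes) in each library by genotype and ALDH fraction, circles for RIP-Cre, triangles for Pdx-Cre, with the mean ± SD of each group in black. Muc4 is lower in FoxO KO than in control within each fraction with no overlap, whereas Krt19 varies from 0 to 18.8 FPKM, with all Pdx-Cre libraries at 2.97 FPKM or more.

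Krt19 (chr11:100002126-100007233), the keratin most used to mark duct cells, was higher in Pdx-Cre libraries. It was at 2.97 FPKM in control ALDH- 3, 6.07 in control ALDH+ 2, 6.04 and 13.8 in FoxO KO ALDH- 4 and 5, and 14.6 and 18.8 in FoxO KO ALDH+ 4 and 5. The 3 RIP-Cre control libraries were at 0 (control ALDH+ 1), 0.217 and 0.345 FPKM. The 6 RIP-Cre FoxO KO libraries were at 0.950, 0 and 7.36 FPKM in ALDH- and 0.752, 10.5 and 12.04 FPKM in ALDH+. Krt19 was therefore present in RIP-Cre libraries in which the acinar genes were near 0, namely FoxO KO ALDH- 3 and FoxO KO ALDH+ 2 and 3, with 89.0 to 137 fragments.

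Between drivers Krt19 differed by 1.89 ± 0.48 (adjusted p = 0.0205, exact permutation p = 0.0167, higher in Pdx-Cre in 4 of 4 groups). Leaving out control ALDH+ 1, control ALDH+ 2 or FoxO KO ALDH- 5 ended the call (adjusted p = 0.0621, 0.0619 and 0.0601), as did leaving out both FoxO KO libraries numbered 5 (1.73, adjusted p = 0.123). Between FoxO KO and control it differed by 1.57 ± 0.50, which did not pass over all genes (adjusted p = 0.399), although the exact permutation p for this gene alone was 0.0194 and it was higher in 4 of 4 combinations of fraction and driver. The within-driver values were 1.84 in RIP-Cre and 1.30 in Pdx-Cre (adjusted p = 0.606 and 0.999). Between fractions it differed by 0.66 ± 0.50 (adjusted p = 0.510).

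Spp1 (chr5:104864130-104870072), the secreted phosphoprotein osteopontin, was the most abundant of the duct markers and was present throughout, from 100 FPKM in FoxO KO ALDH- 3 to 697 FPKM in FoxO KO ALDH+ 5. By group the lowest, median and highest values were 151, 257 and 289 FPKM in control ALDH-, 100, 134 and 427 FPKM in FoxO KO ALDH-, and 143, 168 and 697 FPKM in FoxO KO ALDH+, and the control ALDH+ pair was at 339 and 186 FPKM. All groups overlapped. It did not pass for the fraction (0.21 ± 0.38), the genotype (-0.29 ± 0.38) or the driver (0.45 ± 0.36), with adjusted p-values of 0.807, 0.930 and 0.475. Within RIP-Cre alone the fitted genotype difference was -1.02 (adjusted p = 0.309) and within Pdx-Cre alone 0.74 (adjusted p = 0.999). The positive value rested on the FoxO KO libraries numbered 5, at 427 and 697 FPKM, since FoxO KO ALDH- 4 and ALDH+ 4, at 134 and 184 FPKM, lay below the Pdx-Cre control of their fraction, at 151 and 186 FPKM. Without both libraries numbered 5 the difference over all drivers was -0.73 (adjusted p = 0.340). Whether the genotype difference of Spp1 changes with the driver was not tested. Cftr (chr6:18120687-18272769), the chloride channel of duct cells, was at 0.600 FPKM in FoxO KO ALDH- 5 from 37 fragments, at 0.0155 FPKM in FoxO KO ALDH+ 5 from a single fragment, and at 0 in the other 13 libraries.

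Beyond these, 25 of 26 listed duct genes could be used and 15 were tested. In Pdx-Cre, 7 were higher and none lower, against 5.62% and 4.2% of all genes: the keratins Krt8 (0.98 ± 0.16, adjusted p = 0.00187) and Krt18 (0.87 ± 0.18, adjusted p = 0.00699), the adhesion molecule Epcam (0.40 ± 0.12), Tspan8 (1.46 ± 0.37), Clu (0.78 ± 0.20), Anxa5 (0.44 ± 0.13) and Lcn2 (3.33 ± 0.76, adjusted p = 0.0118). The list median was 0.40 against -0.01 for all genes. Krt8, Krt18 and Lcn2 kept the call in 15 of 15 fits that each left out 1 library, Tspan8 in 13, Clu in 10, and Epcam and Anxa5 in 3. Over 7 settings, of which the main fit is 1, Krt8 passed in 7, Krt18 and Lcn2 in 6, Tspan8 and Clu in 5, and Epcam and Anxa5 in 3. Anxa5 was also lower in ALDH+ (-0.51 ± 0.14, adjusted p = 0.0442), which held in 4 of 15 such fits, and no duct gene passed for the genotype.

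The genes that define duct cells were nevertheless unevenly represented. Sox9, the factor that maintains duct identity, was at 0.494 FPKM in control ALDH- 3 and at most 0.0451 FPKM in the other libraries, and Onecut1 and Aqp5 were at 0 in all 15. The carbonic anhydrase Car2 was at 3.38 FPKM in FoxO KO ALDH- 5, 0.427 in FoxO KO ALDH+ 4 and 0 elsewhere. In contrast Krt7 (82.6 to 141 FPKM) and Prom1 (12.2 to 93.8 FPKM) were present in every library, and Krt7 differed by -0.02 ± 0.12 between drivers (adjusted p = 0.937). Of the 4 centroacinar markers, Aldh1a1, Aldh1a7 and Aldh1b1 were at most 0.353, 0.156 and 3.87 FPKM. The fourth, the Notch target Hes1, ranged from 0.933 to 8.49 FPKM and did not pass (FoxO KO minus control 1.03 ± 0.27, adjusted p = 0.252).

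**Figure D4:**
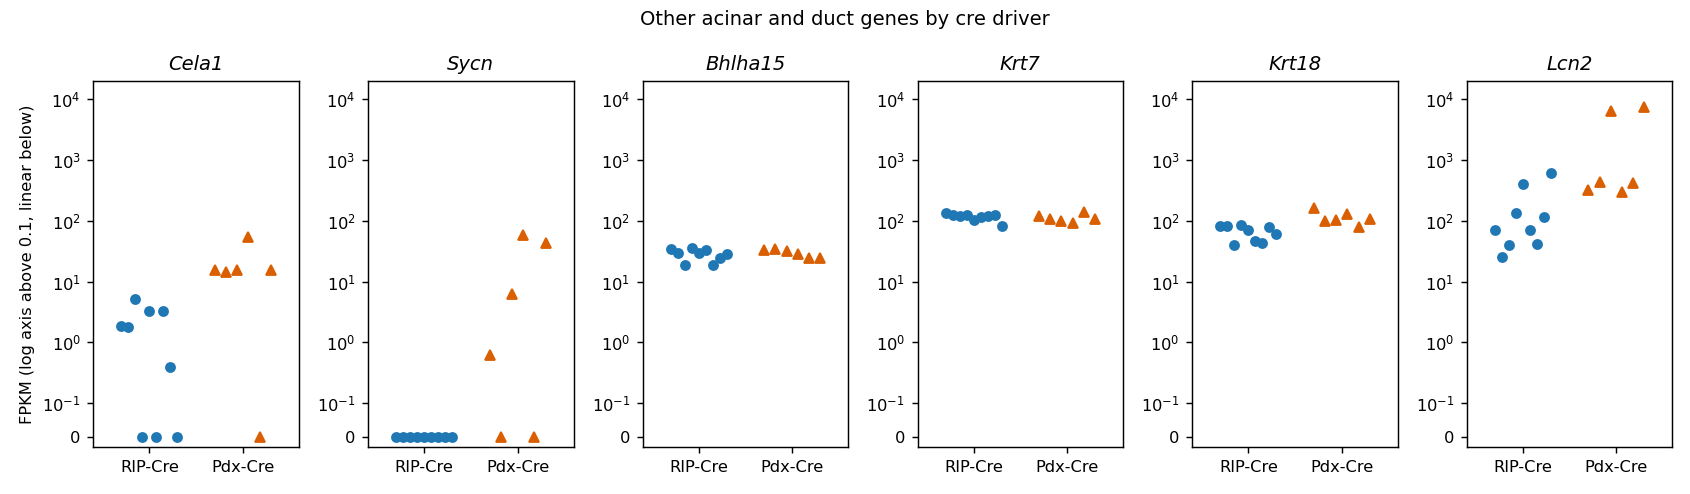
FPKM of Cela1, Sycn, Bhlha15, Krt7, Krt18 and Lcn2 (vertical axis, logarithmic above 0.1 and linear below) in the 9 RIP-Cre and 6 Pdx-Cre libraries, one point per library. Bhlha15 and Krt7 lie at similar levels under both drivers, Cela1 and Krt18 are higher in Pdx-Cre by the test, Sycn is above 1 FPKM in 3 Pdx-Cre libraries, and Lcn2 is at 6473 and 7521 FPKM in FoxO KO ALDH- 5 and FoxO KO ALDH+ 5.

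Other cell type markers moved with the driver as well. Of 8 β-cell genes tested, 6 were lower in Pdx-Cre, against 4.2% of all genes, among them the glucose transporter Slc2a2 (-2.88 ± 0.24) and the factor Nkx6-1 (-1.03 ± 0.12). All 3 α-cell genes tested, 1 of 2 δ-cell genes and 2 of 3 PP and ε-cell genes were higher, against 5.62% of all genes. Gcg (glucagon) ranged from 268 to 35838 FPKM in Pdx-Cre and from 154 to 1016 FPKM in RIP-Cre, and Sst (somatostatin) from 752 to 13631 and from 412 to 1297 FPKM. The libraries highest in Gcg and Sst, control ALDH- 3 and FoxO KO ALDH- 4, had 8.88 and 0.140 FPKM of summed acinar transcripts. Next came FoxO KO ALDH- 5 (Gcg 9533, Sst 8245 FPKM) and control ALDH+ 2 (5822 and 2981 FPKM), with acinar sums of 380 and 1442 FPKM. FoxO KO ALDH+ 5, with an acinar sum of 688 FPKM, was at 598 and 1156 FPKM, within the RIP-Cre ranges. Ppy and Pyy, which encode peptides of PP cells, were the only such genes that differed with the ALDH fraction, lower in ALDH+ by 2.09 and 2.07 on the log2 scale (adjusted p = 0.0133 and 0.0305).

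Most of the markers listed for non-epithelial cells were low. The fibroblast collagens Col1a1, Col1a2 and Col3a1 were at most 0.264, 0.109 and 0.0544 FPKM. Others of that list were higher in single libraries: Vim at 3.63 FPKM in FoxO KO ALDH- 1, Dcn at 1.05 FPKM in FoxO KO ALDH+ 1 and Pdgfrb at 0.668 FPKM in control ALDH+ 1. None of the 9 stellate and fibroblast genes reached the filter. Nor did the 3 red cell genes, although Hbb-b2 was at 7.60 FPKM in FoxO KO ALDH- 1. The endothelial genes Kdr and Cdh5 were at most 0.0176 and 0.102 FPKM, while Pecam1 reached 1.48 FPKM and Esam 3.73 FPKM, and the summed level of the 6 endothelial genes was 1.05 to 4.01 FPKM in Pdx-Cre and 0.835 to 3.73 FPKM in RIP-Cre. The pan-leukocyte gene Ptprc and the lysozyme gene Lyz2 were at most 0.0214 and 0.688 FPKM. Of the 7 immune genes, however, 3 were tested, and 2 of these were higher in Pdx-Cre, against 5.62% of all genes. They were the lysosomal glycoprotein Cd68 (1.46 ± 0.24) and the invariant chain Cd74 (1.7999 ± 0.34). The other gene tested, C1qa, was at 0.772 to 4.64 FPKM in all libraries and did not pass (0.15 ± 0.22, adjusted p = 0.712). The summed level of the list was 45.0 to 164 FPKM in Pdx-Cre against 24.1 to 40.9 FPKM in RIP-Cre. The part of these cell mixtures in the driver differences of Ctrb1 and Krt19 was not tested, and the driver cannot be told apart from other differences between these crosses.

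The genes most like Cpa1 over the 15 libraries, by Pearson correlation of log2(rescaled FPKM + 1) outside the 10 genes, were all acinar: Cpb1 (r = 0.994), 2210010C04Rik (0.990), Amy2b (0.986), Pnliprp1 (0.985) and Cel (0.978). Cpb1, a carboxypeptidase, was at 22.1, 11.4 and 7.31 FPKM in control ALDH+ 2, FoxO KO ALDH+ 5 and FoxO KO ALDH- 5 and at 0 in every other library. These coefficients describe 3 libraries against 12 and give the order of likeness only. For Krt19 the nearest were the ascorbate transporter Slc23a2 (0.897), the NF-κB regulators Bcl3 (0.870) and Nfkbiz (0.868), the phosphatase Dusp10 (0.868) and Rab11fip1 (0.863). All of these were expressed in every library, Bcl3 from 8.98 FPKM in FoxO KO ALDH- 2, where Krt19 was at 0, to 95.5 FPKM in FoxO KO ALDH- 5. No member of the duct or acinar lists was among the 5 genes nearest to Krt19.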

How the data were processed

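Poly-A RNA of sorted islet cells was sequenced, and the authors deposited 1 gene table per library with FPKM and confidence bounds. The submitters' processing notes name TopHat2 2.0.4, bcl2fastq 1.8.4 and mm9. The deposited FPKM is already normalised for length and depth, so low values rest on few fragments. Fragments were derived as (FPKM/SD) squared, with the SD taken from the upper bound. Of values under 500 fragments, 66.5% came within 0.02 of a whole number. Depth was 7492010 to 10057827 fragments. Intervals cover counting error only.

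Of the 23699 entries per table, 248 symbols listed more than once (712 entries) and 63 entries with a failed or too deep estimate were left out, which kept 22924 genes. FPKM was rescaled between libraries by trimmed means of M-values, and log2(rescaled FPKM + 1) was fitted with limma 3.58.1 (R 4.3.3, empirical Bayes with trend) on 4 groups plus cre driver, over 11254 genes with a mean of at least 1. Fold changes on this scale understate the change of low genes. P-values were adjusted by Benjamini-Hochberg over all of these, with a threshold of 0.05. Exact two-sided permutation tests permuted labels within strata (numpy 2.4.6). The fit was tested on simulated data.

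The 10 genes and all gene lists were chosen with earlier results of these data known. Named are the 10 genes, the 6 most abundant genes of each list, genes past the threshold, and the 5 genes most like Cpa1 and Krt19. Other genes (Sox9, Onecut1, Aqp5, Car2, Prom1, Col3a1, Ptprc) were chosen after their values were seen. Some genes of the lists are counted but not reported by name here. Alternatives were another pseudocount (0.1), other scalings, no filter, array weights, each driver alone, no driver term, replicate blocks and leaving out each library. Leaving out both FoxO KO libraries numbered 5 and removing a length trend were chosen after seeing the data. Replicate numbers were not taken as pairs. No pooled correlation among the 10 genes is given, since 3 libraries stood apart from 12.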

Additional observations from a re-analysis of the deposited data

Results flagged for a closer look

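In the groups of 5 libraries, 16 of 20 comparisons put a library apart from the others by Dixon's ratio. Its nominal rate by chance is about 1 in 20, but this rate does not apply here. Each group mixes 3 RIP-Cre with 2 Pdx-Cre libraries, and the ratio is at its maximum, whatever the value, where the other 4 libraries are at 0. Of the 16, 14 concern the acinar genes or Cftr, which are at or near 0 in most of the other libraries, so these are given as values only. In FoxO KO ALDH+ 5 the values apart were Cpa1 at 12.02, Ctrb1 at 601, Cela2a at 11.4, Pnlip at 2.89, Clps at 24.3 and Reg1 at 36.2 FPKM, with Spp1 at 697 and Cftr at 0.0155 FPKM. In FoxO KO ALDH- 5 they were Cpa1 at 15.02, Ctrb1 at 331, Cela2a at 1.83, Pnlip at 7.35, Clps at 9.05, Reg1 at 15.2 and Cftr at 0.600 FPKM. The Cftr value in FoxO KO ALDH+ 5 rests on a single fragment. Krt19 was low in FoxO KO ALDH+ 1, at 0.752 FPKM against 10.5 to 18.8 FPKM in the other 4 libraries of the group.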

How the results depend on the processing

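Muc4 kept its direction for fraction and genotype under every alternative run, but it was the 1 of 9 genes called in each and the call was lost in several. For the ALDH fraction 0 genes passed with no filter, in RIP-Cre or Pdx-Cre libraries alone, under the replicate block on genotype and number (Muc4 1.41, adjusted p = 0.170) and without both FoxO KO libraries numbered 5. Leaving out 1 library gave 0 to 1. For the genotype 0 passed in RIP-Cre or Pdx-Cre alone, and leaving out 1 library gave 0 to 1. Between drivers 2 passed, but 0 with no filter and without both libraries numbered 5, and leaving out 1 library gave 0 to 7. The replicate block on genotype and number joined control ALDH- 2 (RIP-Cre) with control ALDH+ 2 (Pdx-Cre) and left control ALDH- 3 alone. Its control blocks therefore mix drivers, which limits every value from that fit. The replicate block within genotype and driver left the fraction call of Muc4 in place (adjusted p = 0.0485). In FoxO KO, deviations from the mean of each group and driver were correlated between fractions. Same-numbered fractions correlated at 0.0918, 0.0505 and 0.0371 in RIP-Cre and 0.206 in Pdx-Cre. Differently numbered fractions correlated at -0.0616 to 0.00946 in RIP-Cre and -0.206 in Pdx-Cre. With 2 Pdx-Cre libraries per group the deviations mirror each other, so 0.206 and -0.206 are a single value. Directions turned only in values that had not passed: under the block on genotype and number, the fraction differences of Cpa1 (-0.016) and Pnlip (-0.12); in Pdx-Cre alone, the genotype difference of Spp1 (0.74); and without both libraries numbered 5, its driver difference (-0.27). With 1 library left out, the genotype differences ran from -1.66 to 0.42 for Cpa1, -2.54 to 0.62 for Ctrb1, -0.99 to 0.44 for Clps, -1.88 to 0.47 for Reg1 and -0.65 to 0.077 for Spp1. The positive extremes of the 4 acinar genes came without control ALDH+ 2. The fraction difference of Spp1 ran from -0.17 to 0.56 and the driver difference of Muc4 from -0.013 to 0.33. The causes were not tested. Depth limits the acinar values outside the 3 high libraries, most of which rest on 0 to 5 fragments.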
